A study of Mus musculus with 3 samples.

Results

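In CUT&Tag libraries for Flag-tagged Bcl11a from mouse bone marrow LSK cells, 9831 genomic regions carried a peak in exactly 2 of the 3 libraries. They were 16.2% of the 60816 regions obtained when peaks of the 3 deposited lists were joined wherever they overlapped by 1 bp or more on the autosomes, X and Y. Another 22987 regions (37.8%) had a peak of all 3 libraries and 27998 (46.0%) had a peak of 1 library only. The 2-library regions were chosen by the peak calls themselves, so their width, fold enrichment, pileup and q-values are given as descriptions, without a test. All 3 libraries belong to a single group, LSK cells of bone marrow from mice whose own Bcl11a gene carries a knocked-in Flag tag at the start of the protein. The genotype label of each sample reads wildtype, the labels give no age, sex or strain, and no untagged or input library was analysed here. The labels number the libraries as replicates without saying that they came from separate animals, so SDs measure only the spread between these libraries, which may be technical.

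LSK cells lack the surface markers of mature blood lineages and carry Sca-1 and Kit. This marrow fraction contains the blood stem cells together with multipotent progenitors. Bcl11a is a zinc finger repressor that recruits corepressor complexes such as NuRD to DNA, and it is known for silencing fetal globin genes and for its need in lymphoid development and stem cell function. CUT&Tag tethers a transposase through an antibody to a chromatin protein, and the cut fragments pile up where the protein lies or where chromatin is open to the enzyme.

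A minority of the 2-library regions covered promoters, and the stretches shown here are the part of 7 such promoters upstream of the start that lay inside the region. They were picked, after their values were seen, from 40 such stretches at the strongest members (35 genes), to show promoters that differ in CpG content and in the pair of libraries. The 40 stretches held between 1 and 40 CpG dinucleotides, and 6 of the 40 held the BCL11A motif, against 3 of the 7 shown. Sequences are from RefSeq (GRCm38.p6, the assembly behind mm10) on the gene's own strand, 5′ to 3′. Capitals mark matches, on either strand, to 7 searched motifs: the BCL11A motif TGACCA, the ETS family motif CCGGAAG, the CCAAT box, the GC box GGGCGG, the cyclic AMP response element (CRE) TGACGTCA, the GATA motif AGATAA and the RUNX motif TGTGGT. Neighbouring matches can share bases, so a run of capitals can hold more than 1 motif, as where a RUNX match runs into a BCL11A match.
Nufip1: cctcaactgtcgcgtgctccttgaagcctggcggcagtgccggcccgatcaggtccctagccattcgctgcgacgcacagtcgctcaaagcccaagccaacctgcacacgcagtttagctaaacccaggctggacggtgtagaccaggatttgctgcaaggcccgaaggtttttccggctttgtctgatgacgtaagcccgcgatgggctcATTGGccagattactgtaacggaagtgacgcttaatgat
Mapkap1: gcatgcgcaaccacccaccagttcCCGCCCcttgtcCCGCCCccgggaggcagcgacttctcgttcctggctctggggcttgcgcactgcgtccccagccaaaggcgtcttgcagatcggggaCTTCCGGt
Cdc14b: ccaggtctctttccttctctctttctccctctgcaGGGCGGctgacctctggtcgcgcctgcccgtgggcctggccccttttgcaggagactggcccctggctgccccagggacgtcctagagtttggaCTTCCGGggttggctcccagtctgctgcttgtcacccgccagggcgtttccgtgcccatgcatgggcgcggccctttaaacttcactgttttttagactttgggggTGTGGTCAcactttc
Osgep: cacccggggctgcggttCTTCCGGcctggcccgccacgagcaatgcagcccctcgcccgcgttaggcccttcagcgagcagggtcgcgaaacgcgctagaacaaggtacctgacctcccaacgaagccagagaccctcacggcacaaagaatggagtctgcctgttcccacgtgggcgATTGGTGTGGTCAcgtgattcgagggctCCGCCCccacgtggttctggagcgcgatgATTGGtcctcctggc
Fam214a: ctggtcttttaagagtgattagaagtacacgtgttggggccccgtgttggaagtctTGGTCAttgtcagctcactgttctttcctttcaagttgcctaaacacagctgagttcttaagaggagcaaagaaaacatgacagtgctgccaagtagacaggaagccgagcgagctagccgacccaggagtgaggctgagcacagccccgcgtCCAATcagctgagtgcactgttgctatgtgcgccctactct
Srsf11: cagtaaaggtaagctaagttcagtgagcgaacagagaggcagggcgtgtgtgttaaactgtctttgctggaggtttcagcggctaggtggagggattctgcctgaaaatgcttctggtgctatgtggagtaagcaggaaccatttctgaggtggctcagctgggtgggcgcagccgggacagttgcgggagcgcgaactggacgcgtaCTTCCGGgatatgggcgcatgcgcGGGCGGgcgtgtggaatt
Spp1: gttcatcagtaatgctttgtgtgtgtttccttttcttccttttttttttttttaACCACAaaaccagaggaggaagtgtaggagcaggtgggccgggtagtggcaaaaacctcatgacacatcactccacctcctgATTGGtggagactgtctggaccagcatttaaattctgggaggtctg
They lie at chr14:76110641-76110890 (Nufip1, plus strand), chr2:34406720-34406850 (Mapkap1, plus strand), chr13:64248539-64248788 (Cdc14b, minus strand), chr14:50924894-50925143 (Osgep, minus strand), chr9:74975861-74976110 (Fam214a, plus strand), chr3:158031749-158031998 (Srsf11, minus strand) and chr5:104434929-104435110 (Spp1, plus strand), each immediately upstream of the listed start.
Nufip1 encodes an RNA-binding protein of small nucleolar RNP assembly, Mapkap1 a subunit of the mTORC2 kinase complex, Cdc14b a phosphatase, Osgep a tRNA-modifying enzyme, Srsf11 a splicing factor and Spp1 the secreted protein osteopontin. The Osgep stretch held 23 CpG dinucleotides in 250 bases and 6 motif matches, including 1 run of CCAAT, RUNX and BCL11A letters. The Spp1 stretch held 1 CpG in 182 bases, and its capitals are a RUNX and a CCAAT match. In between were Nufip1 with 18 CpG in 250 bases, Srsf11 with 16 in 250, and Mapkap1 with 11 in 131. The Cdc14b stretch had 11 CpG in 250 bases and Fam214a had 8 in 250, and both held a BCL11A motif.

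Of 21255 listed promoters of coding genes (250 bases before and 50 after the start, 17486 genes), 1006 overlapped a 2-library region and no 3-library region. Their median CpG count per 300 bases was 19 (quartiles 11 and 27). Promoters under 3-library regions had a median of 23, those under 1-library regions 16, and those under no region 4. A CpG observed-over-expected ratio of 0.6 or more was found in 63.0% of promoters under 2-library regions, 80.8% under 3-library regions, 54.5% under 1-library regions and 16.8% under none. By both measures the 2-library promoters lay between the other occupied classes.

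**Figure D1:**
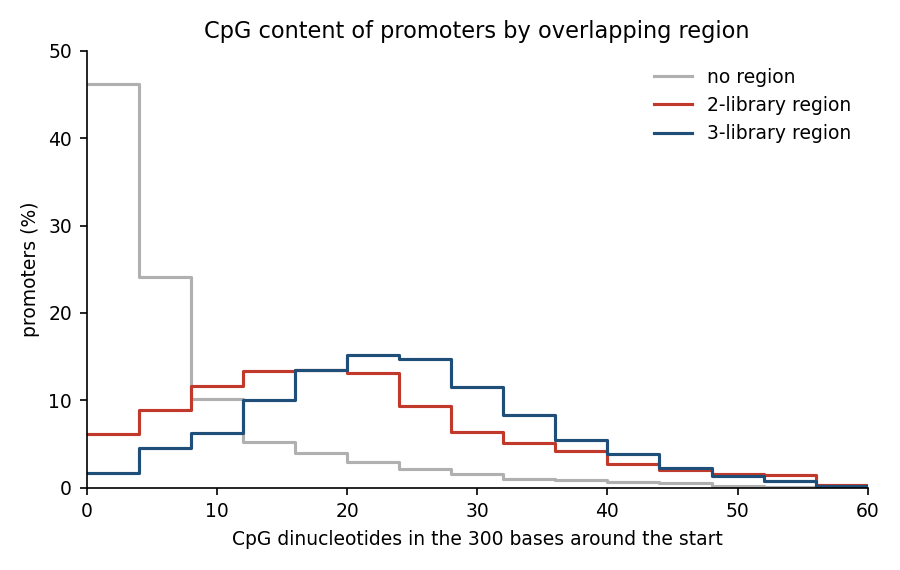
The x axis is the number of CpG dinucleotides in the 300 bases around a start and the y axis the percentage of promoters in each step of 4 CpG, for promoters under no region, a 2-library region or a 3-library region. The 2-library curve is shifted to fewer CpG than the 3-library curve (medians 19 and 23), and most promoters under no region lie at the left (median 4).

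The motifs differed in how often they occurred. The ETS motif was present in 15.7% of promoters under 2-library regions, against 20.4% under 3-library regions, 3.55% under none and 11.6% of all. The GC box was present in 64.1%, against 71.3%, 21.9% and 46.2% in the same order. Both are motifs of CpG-rich promoters, and the 2-library promoters again stood between 3-library promoters and those under no region. The BCL11A motif TGACCA was present in 8.15% under 2-library regions, 11.2% under 3-library regions, 11.6% under 1-library regions, 14.1% under none and 12.5% of all. CCAAT was present in 31.3%, 38.8%, 33.3%, 38.8% and 38.2% in this order. For both motifs the 2-library class had the lowest share of the classes listed. The GATA motif was found in 7.06% under 2-library regions, 4.87% under 3-library regions, 14.3% under none and 9.65% of all. In the same order, the CRE was found in 2.19%, 3.53%, 1.07% and 2.23%, and the RUNX motif in 13.1%, 11.999%, 17.7% and 14.97%. A match is a description of the letters in the window, and the windows differ in CpG content as given above.

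The 2-library regions were narrow and weak by comparison. The median joined region spanned 448 bp (quartiles 355 and 578), against 752 bp for 3-library regions and 267 bp for 1-library regions. A region joined from more peaks is wider by construction, so the mean width of a region's own peaks is the fairer figure, and its median was 340 bp against 573 bp. Together the 2-library regions covered 4.78 Mb and the 3-library regions 18.7 Mb.

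Fold enrichment is the caller's ratio of the summit pileup to the local background, as the authors deposited it. Its median in peaks of 2-library regions was 4.52 in library 1, 4.44 in library 2 and 4.18 in library 3. In 3-library regions the same medians were 6.30, 6.39 and 6.02. The 3 libraries thus fell close together within each class. The median summit pileup was 11, 13 and 16 fragments in 2-library regions of libraries 1, 2 and 3, and 20, 26 and 31 in 3-library regions. The median −log10 q was 4.07, 4.83 and 5.18, against 10.1, 12.6 and 14.0. A pileup of 11 fragments leaves wide counting error on any single member.

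**Figure D2:**
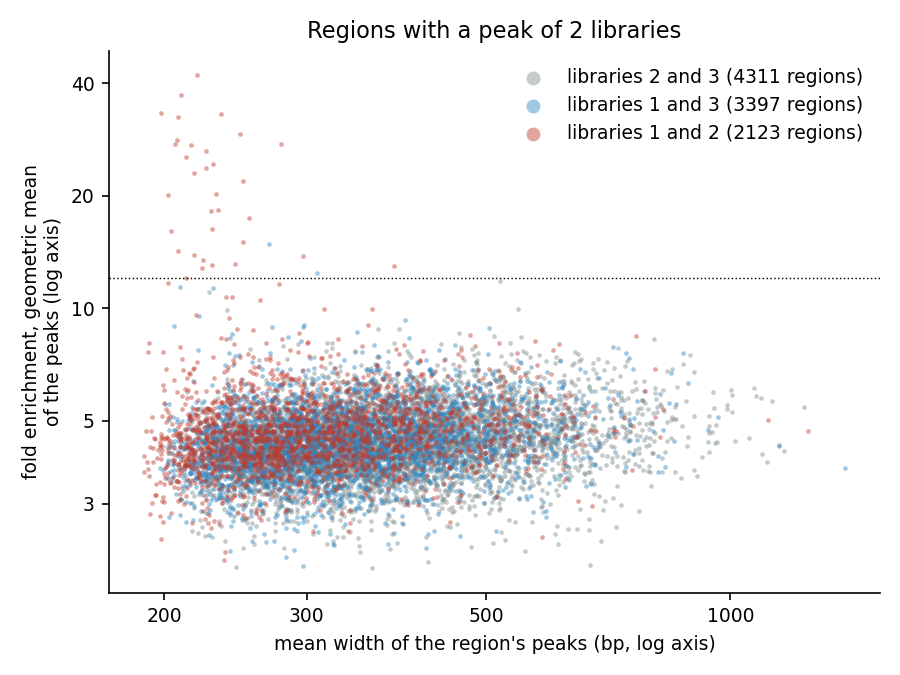
Each point is 1 of the 9831 regions with a peak of 2 libraries; the x axis is the mean width of its peaks in bp and the y axis the geometric mean of their fold enrichments, both on log axes, coloured by the pair of libraries. Nearly all regions lie under the dotted line at 12-fold, and the points above it are 33 narrow regions of libraries 1 and 2 and 2 of libraries 1 and 3.

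The pairs were not equally common. Libraries 2 and 3 shared 4311 regions (43.9%), libraries 1 and 3 shared 3397 (34.6%) and libraries 1 and 2 shared 2123 (21.6%). Library 1, the library missing from the most common pair, also had the lowest background coverage, at 1.07 fragments per base, against 1.41 in library 2 and 1.95 in library 3. The pileup expected in the missing library was estimated by scaling the summit pileups of the other libraries by these backgrounds. Its median was 9.597 fragments where library 1 was missing, 12.8 where library 2 was missing and 19.2 where library 3 was missing. The peaks called in those libraries had medians of 14, 18 and 20 and 5th percentiles of 7, 9 and 10. So 15.2% of the regions lacking library 1, 17.0% of those lacking library 2 and 44.9% of those lacking library 3 had an expected pileup at or above the median of the missing library's own peaks. At or above the 5th percentile of those peaks were 88.9%, 92.6% and 100%. Both sets of shares rest on libraries in which a peak had to be called, which favours high expected pileups. The lowest pileups called in libraries 1 and 2, 6 and 7 fragments, already scale to above 10 in library 3. The 100% was therefore fixed in advance, and the shares cannot say whether a peak was to be expected. In 3-library regions the same estimate gave a median measured-to-expected ratio of 1.08, 1.04 and 0.864 for libraries 1, 2 and 3. The part of coverage in which library lacked a peak was not tested.

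The missing library usually had no peak nearby. The median gap from a 2-library region to the closest peak of the library without one was 6961 bp. The gap was within 1 kb for 1411 regions (14.4%) and within 100 bp for 110 (1.12%). At the limit of the rule stood a region 200034 bp from the nearest coding gene end, that of Hes1, which lay 1 bp from a peak of library 1, a region inside the nuclear receptor coactivator gene Ncoa3, 1 bp from a peak of library 2, and a region at the start of the Srsf12 gene, 3 bp from a peak of library 3. Their fold enrichments were 5.54 and 4.46 for Hes1, 3.55 and 6.08 for Ncoa3, and 7.25 and 4.99 for Srsf12. On the other side were 3-library regions whose weakest peak only just passed the caller's q threshold of 0.05. These were the regions nearest to Ccl21b (fold 2.83, 3.73 and 3.01 in libraries 1, 2 and 3), Tspan15 (2.83, 2.92 and 4.37) and Ubl3 (2.75, 3.53 and 3.82).

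Where 2 libraries did share a region, they placed it less exactly than in 3-library regions. The median distance between their summits was 107 bp for libraries 2 and 3, 98 bp for libraries 1 and 3 and 76 bp for libraries 1 and 2, against 75, 77 and 62 bp for the same pairs in 3-library regions. Across regions, Spearman's rho of fold enrichment between the libraries of a pair was 0.46, 0.40 and 0.48 in 2-library regions, against 0.80, 0.76 and 0.79 in 3-library regions. These are descriptions over regions, which are not independent replicates, and 2-library regions span a narrower range of fold enrichment. The median distance from a 2-library region to the nearest 3-library region was 13274 bp, and 24.3% lay within 5 kb of one. Between neighbouring 3-library regions these values were 12140 bp and 24.2%, and for 1-library regions 17555 bp and 17.9%.

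The position of the regions relative to genes was the first comparison that the peak values did not fix. Of the 2-library regions, 1635 (16.6%) lay at a gene end, meaning a summit no more than 1 kb from an outer end of a protein-coding gene, against 8507 (37.0%) of the 3-library regions and 10.2% of the 1-library regions. Counting peaks library by library, the share was 13.9%, 18.9% and 16.9% for 2-library regions in libraries 1, 2 and 3, and 37.2%, 37.1% and 37.1% for 3-library regions. The 2-library share was lower in all 3 libraries, and the ranges did not overlap. However, the libraries share the same 3-library regions, and each 2-library region is counted in 2 libraries. The 3 differences are thus not independent, here and in the other comparisons by library. Their agreement and SD do not measure replication. The mean difference was −20.6 ± 2.53 percentage points (SD, n = 3 libraries). The exact paired permutation test over libraries (two-sided) gave p = 0.25, also after Benjamini-Hochberg adjustment over 4 comparisons, which is the smallest value that 3 libraries allow, so the design cannot reach 0.05.

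The difference became smaller when regions of like strength or width were compared. With 3-library regions weighted to the fold enrichments of the 2-library regions, the shares were 16.6% and 24.95%, a difference of −8.32 percentage points. Weighted to peak width, the 3-library share was 22.2% and the difference −5.61. Within the 2-library regions, the gene-end share did not climb with strength: it was 17.4%, 15.5%, 16.1% and 17.5% in 4 equal bins of fold enrichment from the weakest to the strongest. Over the same fold ranges, the share of 3-library regions was 19.9%, 22.2%, 23.9% and 42.5%. With peak width it did climb, from 12.4% in the narrowest of 4 bins of 2-library regions through 15.1% and 17.0% to 22.0% in the widest, while 3-library regions went from 15.0% through 17.7% and 22.6% to 42.8%. In each of the 4 bins of both measures the 2-library share was the lower, with the largest gap in the top bin, which has no upper limit and in which 3-library regions reach higher values.

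**Figure D3:**
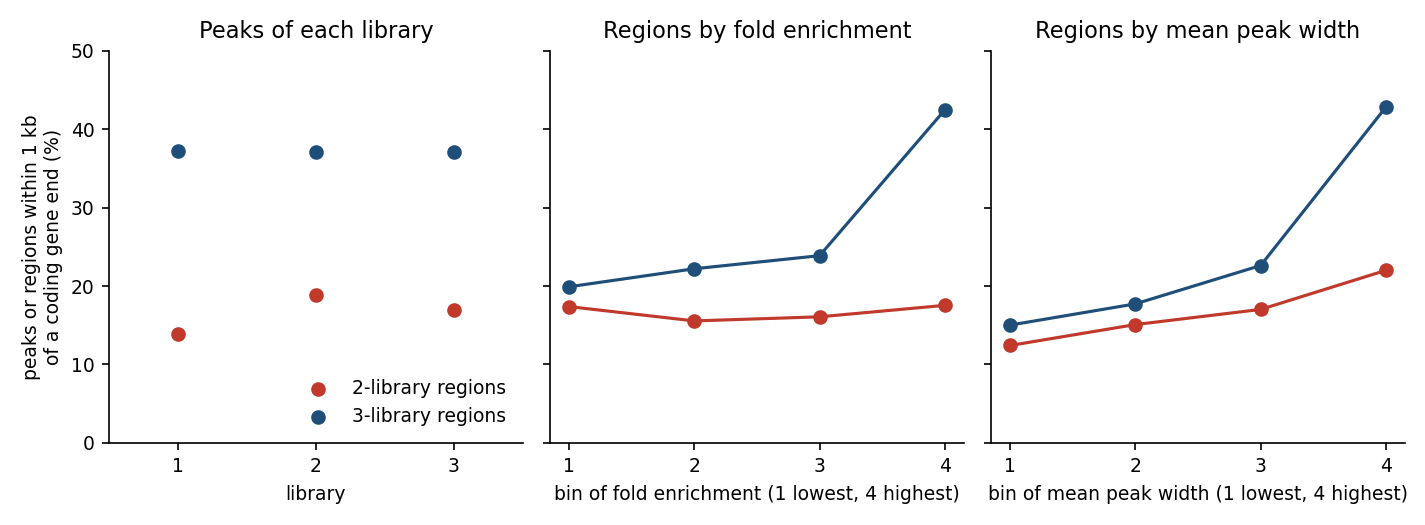
The y axis of all panels is the percentage of peaks (left) or regions (middle and right) with the summit within 1 kb of a coding gene end; the x axis is the library, or the bin of fold enrichment or mean peak width, each bin holding about the same number of 2-library regions, from lowest to highest. The 2-library shares (13.9% to 18.9% by library) lie below the 3-library shares (37.1% to 37.2%), are level across fold bins (15.5% to 17.5%) and rise across width bins (12.4% to 22.0%).

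The pairs differed among themselves. Regions of libraries 2 and 3 were at gene ends in 20.1% of cases, those of libraries 1 and 2 in 16.1% and those of libraries 1 and 3 in 12.6%, each below the 37.0% of 3-library regions. Chromosome by chromosome, the 2-library share was the lower in 20 of 21, including all 19 autosomes, where it ranged from 11.5% to 19% against 31.0% to 42.3%. On X it was 31.9% of 113 regions against 50.8%. The exception was Y, with 7 2-library regions. The 2-library regions made up between 15.1% and 17.8% of all regions on each autosome.

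Most gene ends involved were starts. For genes over 5 kb with a known strand, 916 of 1102 gene-end members (83.1%) lay at the start and 186 at the finish. The share at the start was 94.8% for 3-library regions and 69.4% for 1-library regions. Measured only against listed starts, a choice made after seeing the data, 12.4% of 2-library regions and 32.6% of 3-library regions had a start within 1 kb.

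More of the 2-library regions lay in the body of a gene, and fewer at its ends. Of all regions, 45.7% of the 2-library and 35.8% of the 3-library ones had their summit inside a coding gene away from gene ends, and the difference by library was 10.6, 8.73 and 10.2 percentage points in libraries 1, 2 and 3 (mean 9.84 ± 0.995 SD, n = 3, exact paired permutation p = 0.25). Weighted to equal fold enrichment, the difference was 0.824 percentage points, and weighted to equal peak width it was 4.33. With gene-end regions left out of the denominator the order turned: 4496 of 8196 2-library regions (54.9%) and 8231 of 14480 3-library regions (56.8%) were inside a gene, so the higher overall share goes with the lower gene-end share. The median distance from the summit to the nearest coding gene end was 11703 bp (quartiles 2497.5 and 37058) for 2-library regions and 4219 bp (quartiles 233 and 21850) for 3-library regions. On the log10 scale the medians differed by 0.51, 0.42 and 0.45 in libraries 1, 2 and 3 (mean 0.46 ± 0.047 SD, n = 3, exact paired permutation p = 0.25). The direction was the same in the 3 libraries for both measures, which again share their regions. Weighted to equal fold enrichment the log10 difference was 0.30, and to equal peak width 0.11, against 0.44 over all regions.

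**Figure D4:**
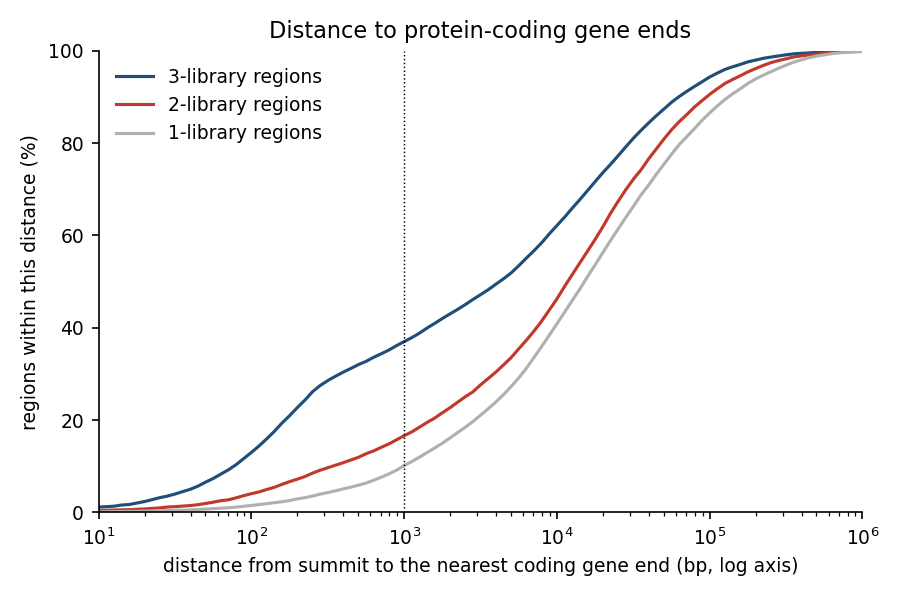
The x axis is the distance from a region's summit to the nearest protein-coding gene end (bp, log axis) and the y axis the percentage of regions within that distance, for 1-, 2- and 3-library regions. The 2-library curve runs between the others, at 16.6% at the dotted 1 kb line against 37.0% for 3-library regions, and lacks the early climb of the 3-library curve.

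Counted by gene, 1916 of 21887 coding genes (8.75%) had a 2-library region reaching within 1 kb of an end, and 9902 (45.2%) had a 3-library region there. For 1387 genes (6.34%) a 2-library region lay there with no 3-library region at either end. A region was called distal if its summit was farther than 1 kb from any gene end and a coding gene end lay within 100 kb. The 6707 distal 2-library regions were nearest to 4462 genes (20.4%), and the 11876 distal 3-library regions to 6206 genes (28.4%).

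The strongest members at gene ends were not genes of the blood lists described further on. The 10 highest by mean log2 fold enrichment lay at Taco1, Mpzl3, Nufip1, Mfsd4b4, 4921524J17Rik, Tspyl2, Mapkap1, Tmem33, Gm51425 and Ahsg. The region at the start of Taco1, a mitochondrial translation activator (chr11:106066771-106067011), had 19.9-fold enrichment in library 1 and 16.8-fold in library 2, with 102 and 110 fragments at the summit. Library 3 had a peak 239 bp away but none in the region. The region at Mpzl3, a membrane adhesion family gene (chr9:45055125-45055573), had 9.79-fold enrichment in library 1 and 8.83-fold in library 3. The region at the start of Nufip1 (chr14:76110570-76111151), whose sequence is shown above, had 8.22-fold in library 1 and 9.53-fold in library 3, with 16 and 29 fragments. The one at the start of Mapkap1 (chr2:34406720-34407250) had 9.97-fold in library 2 and 7.13-fold in library 3, with 23 and 20 fragments. Apart from Taco1, the members of this group had 13 to 29 fragments at each summit. These were above the 2-library medians of 11, 13 and 16 fragments in libraries 1, 2 and 3.

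The strongest distal members were of another kind. All 10 were shared by libraries 1 and 2 and lacked a peak of library 3. They were nearest to Rfc3, Dpy19l2, Eno1b, Gm32856, Slc14a2, Usp12, Stap2, Pde7b, Greb1 and Rec114. The first lay outside genes 83419 bp from the start of Rfc3, a subunit of the replication clamp loader (chr5:151734551-151734790), with 44.3-fold enrichment and 252 fragments in library 1 and 39.7-fold and 262 fragments in library 2. The same summit position was called in both libraries, 411 fragments were expected in library 3 by the scaling above, and the closest library 3 peak was 83317 bp away. The region near Dpy19l2, a gene of sperm head formation (chr9:24542029-24542238), had 40.7-fold and 34.0-fold, with 194 and 158 fragments. The one inside Stap2, an adaptor protein gene (chr17:56005867-56006079), had 26.1-fold and 24.6-fold, with 176 and 215 fragments. On X the strongest was inside Il1rapl1, a neuronal receptor gene, with 34.0-fold and 32.4-fold, and on Y it was nearest to Gm20910, with 5.32-fold and 9.14-fold, both again of libraries 1 and 2. The strongest regions of the other pairs reached 14.3-fold and 15.4-fold (libraries 1 and 3, nearest to Fbxo33) and 12.05-fold and 11.5-fold (libraries 2 and 3, nearest to Gm41099).

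Counting all regions with a mean fold enrichment of 12 or more, 33 were of libraries 1 and 2, 2 of libraries 1 and 3 and 0 of libraries 2 and 3. There were 1079 such 3-library regions, 24 of library 1 alone, 4 of library 2 alone and 0 of library 3 alone. Of the 33, 1 was at a gene end, against 588 of the 1079. The 33 were short, with a median joined width of 240 bp and median peak widths of 213 bp in library 1 and 232 bp in library 2, where the 3-library regions of that strength had a median width of 834 bp. The shortest peak in the list of library 3 was 221 bp, against 174 and 199 bp in libraries 1 and 2. Of the 33, 22 had a peak shorter than 221 bp and 10 had both peaks shorter, while among the other 2090 regions of libraries 1 and 2 these shares were 37.7% and 5.36%. With peaks under 221 bp left out of every list, a step chosen after seeing the data, there were 11 regions of libraries 1 and 2 with 12-fold enrichment or more. That number follows from the 22 with a shorter peak and is not a further result. The part of the shortest callable width in these regions was not tested.

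Among blood genes, 6 lists of 167 genes were followed: stem cell transcription factors, stem cell surface and signalling genes, myeloid, lymphoid, erythroid and megakaryocyte genes, and markers of other marrow cells. A 2-library region reached an end of 13 of the 167 (7.78%, against 8.75% of all coding genes). A 3-library region reached an end of 78 of the 167, a share close to the 45.2% of all coding genes. The 13 were Gfi1, Esam, Cd27, Tie1, Cebpb, Ncf1, Cst7, Il2rg, Lck, Treml1, Tspan32, Stat5a and Nkg7, named after their values were seen. Gfi1, a repressor needed for stem cell quiescence, Cebpb, a myeloid transcription factor, and Stat5a, a cytokine signal transducer, each also had a 3-library region at an end. So did Cd27, Tspan32 and Nkg7. The 2-library region at the start of Nkg7, a cytotoxic granule gene, had 4.41-fold in library 2 and 3.75-fold in library 3.

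Of 8903 2-library regions within 100 kb of a coding gene end, 148 (1.66%) were nearest to a blood gene, against 399 of 21682 (1.84%) for 3-library regions. The difference was −0.194, −0.00075 and −0.317 percentage points in libraries 1, 2 and 3 (mean −0.171 ± 0.159 SD, n = 3, exact paired permutation p = 0.25). It was close to 0 in library 2 and of the order of its own spread, and it changed sign with a stricter q threshold, with a 20 kb reach, without library 3 and with the shortest peaks left out. With 3-library regions weighted to equal fold enrichment, their share was 2.54% and the difference −0.879 percentage points.

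In each list the 3-library regions were the more numerous. The 29 stem cell transcription factor genes had 43 distal 2-library regions at 18 genes (62.1%, against 20.4% of all coding genes). They had 96 distal 3-library regions at 25 genes (86.2%, against 28.4%). A high share of genes with a distal 2-library region was not particular to this list. It was 56.5% for marrow stroma and endothelium, 48.4% for interferon and inflammatory and 40.7% for stem cell surface and signalling genes. Lists under the 20.4% included hepatocyte genes (18.2%), markers of other marrow cells (15.8%) and ribosomal protein genes (8.75%). Counts of distal 2- and 3-library regions were 21 and 49 for 27 stem cell surface and signalling genes and 16 and 45 for 30 myeloid genes. They were 20 and 61 for 30 lymphoid genes and 18 and 37 for 33 erythroid and megakaryocyte genes. The 2-library share of these distal regions was between 24.7% and 32.7% in the 5 lists, against 36.1% over all coding genes. It was 33.3% for the markers of other marrow cells. Among lists of other genes it ran from 26.9% for corepressor subunits to 61.5% for the hepatocyte genes described below. A share under that of all coding genes was thus not particular to blood lists. Erg, a transcription factor of stem cells, had 7 distal 2-library regions beside 8 distal 3-library regions, and Runx1, which starts definitive blood formation and was picked after its counts were seen, had 5 beside 10. Both are genes with many regions of either kind.

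The strongest member of each list was modest in height, with 1 exception. That was a region 74364 bp from Ikzf2, the gene of the transcription factor Helios (chr1:69456724-69456981), at 20.6-fold and 19.9-fold in libraries 1 and 2, which is 1 of the 33 short strong regions. The strongest other stem cell factor regions lay outside Mecom (6.38-fold in library 1, 4.84-fold in library 3), inside Erg (5.04 and 5.30 in libraries 1 and 2) and inside Ldb1 (5.17 and 4.79 in libraries 1 and 2). In the surface and signalling list they were inside Cd44, an adhesion receptor (7.89 and 7.47 in libraries 2 and 3), outside Cd34 (8.11 and 4.86 in libraries 2 and 3), inside Kit, the stem cell factor receptor (6.29 and 5.17 in libraries 1 and 2), and inside Angpt1 (5.80 and 4.99 in libraries 1 and 2).

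Members near differentiation genes had the same range of heights. The strongest myeloid member lay outside Klf4 (chr4:55488605-55489496), at 6.23-fold in library 2 and 6.45-fold in library 3. Regions near Itgam, Irf8 and Cebpa followed, and the one near Irf8, a factor of monocyte and dendritic cell development, lay 60 bp from a library 3 peak. The strongest lymphoid members were near Bach2 (6.93 and 4.41 in libraries 1 and 3) and inside Lef1 (4.84 and 6.23), Pax5 (5.32 and 5.40) and Satb1 (4.88 and 4.76), the last 3 of libraries 1 and 2. For erythroid and megakaryocyte genes they were inside Sox6, a partner in globin silencing (6.65 and 4.75 in libraries 2 and 3), inside Rhd (5.22 and 5.26 in libraries 2 and 3), outside Tfrc, the transferrin receptor (6.65 and 3.99 in libraries 1 and 3), and inside Stat5a (5.26 and 4.95 in libraries 1 and 2). Near markers of other marrow cells they were Klrb1c (5.14 and 5.46 in libraries 1 and 3), Sdc1 (4.74 and 3.99 in libraries 2 and 3), Gata3 (3.49 and 4.88 in libraries 1 and 3) and Nkg7.

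For 4 members the nearest coding gene was Bcl11a itself. The region inside the gene (chr11:24141621-24142185), 31815 bp from its finish, had 3.86-fold in library 1 and 3.53-fold in library 3. A region 820 bp from the finish (chr11:24174232-24174564) had 3.24-fold and 3.94-fold in libraries 1 and 2, on 6 and 9 fragments. The other 2 lay 132644 and 228607 bp beyond it, with 3.32-fold and 4.07-fold, and 3.96-fold and 4.65-fold, in libraries 2 and 3. By the mean of their libraries all 4 were below the 2-library median of 4.403-fold.

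The LSK label was checked against 18 marker genes, by peaks rather than expression. Kit, Cd34, Flt3 and Procr, markers of stem and progenitor cells, had a 3-library region at an end, as did Mpo and Klf1, while Ly6a, which encodes Sca-1, had a 1-library region only and Slamf1 none. These 6 of 18 are 33.3%, against 45.2% of all coding genes, so the presence of a region at these ends does not set the markers apart. None of the 18 had a 2-library region at an end, against 8.75% of all coding genes, and 18 genes are few for a share of that size. Distal 2-library regions were nearest to Kit (2), Flt3 (2), Cd34 (1), Itgam (3) and Cdh5 (1).

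Genes of other cell types were counted in the same way. For a list of 22 hepatocyte genes, chosen as unrelated to marrow, 14 2-library regions had a list gene as nearest, and 12 of them (85.7%) were shared by libraries 1 and 2. Over all 8903 2-library regions near coding genes the share of this pair was 21.3%. Of the 22 genes, 5 (22.7%) had a 2-library region at an end, against 8.75% of all coding genes, and 1 had a 3-library region there. Only 5 3-library regions were nearest to a hepatocyte gene.

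Alb, the serum albumin gene, accounted for 5 of the 14, all inside the gene and all of libraries 1 and 2. The first (chr5:90463984-90464301) had 10.3-fold enrichment with 28 fragments in library 1 and 9.58-fold with 34 fragments in library 2. The next (chr5:90472005-90472741) had 8.67-fold and 7.22-fold, with 30 and 29 fragments. The other 3 had between 11 and 30 fragments per library. The closest library 3 peak was between 67424 and 79314 bp from each of the 5. The other members of the pair were at the finish of Ahsg, which encodes fetuin-A (8.34-fold and 8.04-fold), at the finish of Apoa1, the main HDL apolipoprotein (6.0 and 7.97), inside the fibrinogen gene Fga (7.25 and 4.57), at Hp, which encodes haptoglobin (5.16 and 4.65), at the finish of Apob (4.35 and 4.57), at the finish of Hpx, which encodes hemopexin (3.70 and 3.94), and inside Serpina1a (3.73 and 3.76). The 2 regions of libraries 2 and 3 were at the start of Ahsg (5.97 and 4.65) and outside Cyp8b1 (4.24 and 5.04). Apart from Cyp8b1, an enzyme of bile acid synthesis, these genes encode proteins that the liver secretes into plasma. All were named after their values were seen.

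A second list of 40 hepatocyte genes, added after seeing these values, showed less. It had 9 2-library regions, 4 of libraries 1 and 2, 2 of libraries 1 and 3 and 3 of libraries 2 and 3, and 18 3-library regions. The 4 were inside Serpina3k (2 regions), inside Fetub, and a region nearest to Serpind1 that lies inside another gene, all named after their values were seen. Of these 40 genes, 1 (2.50%) had a 2-library region at an end. In the other direction, 0 of 17 2-library regions nearest to ribosomal protein genes and 0 of 12 nearest to proteasome genes were of libraries 1 and 2, while 12 and 9 of them were of libraries 2 and 3. Over all coding genes the shares of the pairs were 21.3% for libraries 1 and 2, 34.0% for libraries 1 and 3 and 44.7% for libraries 2 and 3. Of 19 nearest to marrow stroma and endothelium genes, 3 were of libraries 1 and 2, 5 of libraries 1 and 3 and 11 of libraries 2 and 3. Among them was the Spp1 promoter shown above (7.25-fold in library 1 and 6.45-fold in library 3). Of the 23 genes of this list, 4 (17.4%) had a 2-library region at an end, also above the 8.75% of all coding genes. Of 10 nearest to neuronal genes, 1 was of libraries 1 and 2, 5 of libraries 1 and 3 and 4 of libraries 2 and 3. Of 25 neuronal genes, 1 (4%) had a 2-library region at an end. The source of the regions at hepatocyte genes was not tested, and whether such a signal comes from a few cells or from a little of it in many cannot be told apart in bulk libraries.

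**Figure D5:**
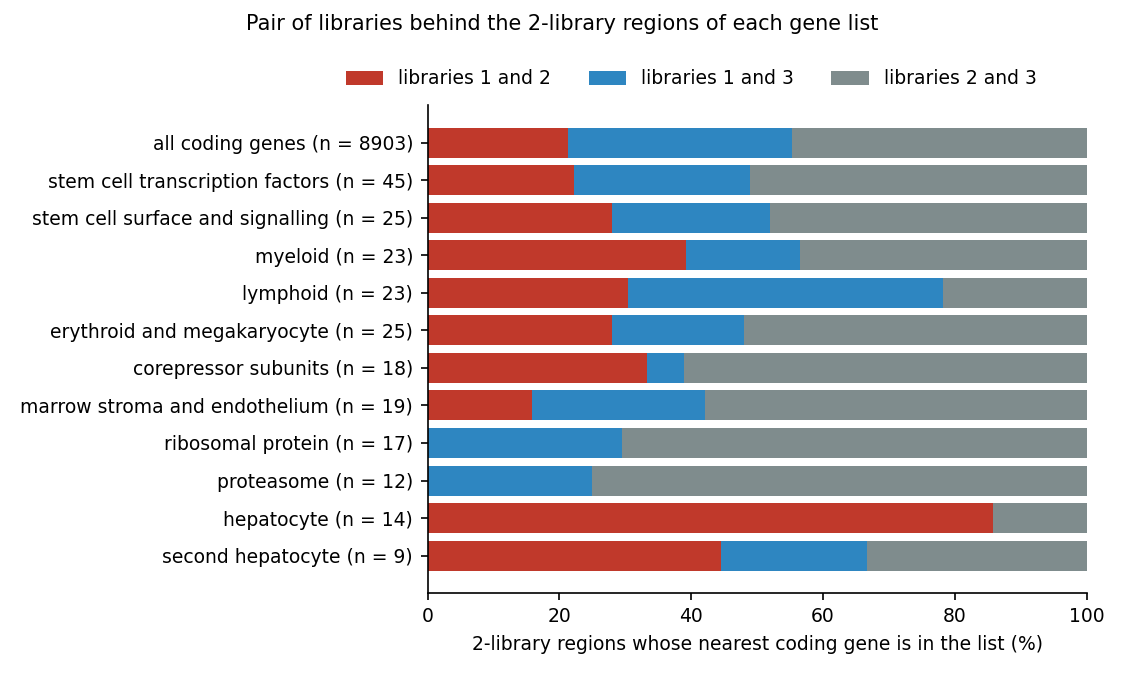
Each bar splits the 2-library regions whose nearest coding gene (within 100 kb) belongs to the list into the pairs of libraries that share them, as a percentage, with the number of regions in brackets. Libraries 1 and 2 account for 21.3% over all coding genes, 85.7% for the hepatocyte list, 44.4% for the second hepatocyte list and 0% for ribosomal protein and proteasome genes.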

How the data were processed

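The submitters' processing notes name mm10 as the build and Bowtie2, SAMtools and MACS2 as the tools used on the 3 CUT&Tag libraries, without versions. Each deposited list holds the peaks of its own library, 38739, 36466 and 43469 in libraries 1, 2 and 3. The authors deposited, for each peak, its position and summit, a fold enrichment (a ratio), −log10 p and −log10 q, and a score, which was not used and equalled 10 times −log10 q without decimals in 99.9948%, 99.9973% and 99.9977% of the peaks of libraries 1, 2 and 3. Whether duplicates were removed is not stated in these sources.

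Summit pileup and background were solved from fold enrichment and −log10 p, and 100% of pileups were whole within 0.05 of a fragment. Coverage per library was read from its lowest background, and total fragment numbers are unknown. Peaks overlapping by 1 bp or more were joined, and the region's value in a library is that of its strongest peak. A region's fold enrichment is the geometric mean over its libraries. Genes are the 21887 protein-coding genes of a RefSeq table (GRCm38.p6), which gives outer ends only, so exon and UTR classes were not used. Starts, strand and promoter bases came from the RefSeq promoter table, which held 17492 of these genes.

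Libraries were compared by an exact paired permutation test (sign flips), with Benjamini-Hochberg adjustment over 4 comparisons. The libraries share regions, so the differences it used are not independent. Weighting used 20 bins of the 2-library values. The self-test on simulated peaks recovered the known answers. Named regions are the 10 strongest at gene ends and the 10 strongest distal ones, up to 4 per blood list, those nearest to Bcl11a, the strongest on X, on Y and per pair, and the 3 at each side of the rule's limit; other names are marked as chosen after their values were seen. The members, gene lists and rules were chosen with earlier results of these data known. Alternatives covered the q threshold, list length, joining, gene set, windows, matching for strength or width, and leaving out each library. Python 3.11.15, numpy 2.4.6, pandas 2.3.3, scipy 1.17.1 and matplotlib 3.10.9 were used.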

Additional observations from a re-analysis of the deposited data

Results flagged for a closer look

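Peaks on the mitochondrial chromosome were left out of the joined regions. There were 8 such peaks in library 1, 7 in library 2 and 7 in library 3, a signal in data outside the comparisons. No control library was analysed here against which to set them.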

How the results depend on the processing

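The 5 main results (the number of 2-library regions and 4 differences from 3-library regions) were recomputed in 67 combinations of result and alternative, and 59 kept their direction or, for the number, stayed within 1.5 times. No p passed 0.05 under any setting, since 3 libraries cannot reach it. The number of 2-library regions, 9831, was 6340 with −log10 q of at least 5, and from 2123 to 4311 when a library and the pairs it belongs to were left out. The blood gene share difference, −0.178 percentage points over all regions, changed sign in 4 settings: it was 0.375 with −log10 q of at least 5, 0.123 with a reach of 20 kb, 0.0771 with only peaks at least as wide as the shortest of library 3, and from −0.552 to 0.431 leaving out each library, positive without library 3. Its largest size was −0.879, with equal fold enrichment. The gene-end difference ran from −24.4 to −17.0 percentage points leaving out each library, and the gene-end, distance and inside-gene differences kept their sign in every alternative, with the smallest sizes under equal peak width or equal fold enrichment. The median width, 448 bp, was 541 bp with −log10 q of at least 5 and 395 bp without library 3, beyond its SD of 47.7 bp over the pairs. The 14 hepatocyte regions became 9, with 6 of libraries 1 and 2, with −log10 q of at least 5, and 11, with 9 of that pair, without the short peaks. The width limit and the listed starts were chosen after seeing the data. No paired analysis was possible because there is a single group, and library numbers pair nothing beyond the within-library comparison itself. Summit pileups of about 11 to 16 fragments limit what can be said of any single region.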
